A study of Mus musculus with 4 samples.

Results

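The alpha-amylase genes of the mouse and their neighbour Rnpc3 were followed in pancreatic tissue lying beside tumours. The rows of the deposited count table were taken for 7 genes, namely Amy1, Amy2a2, Amy2a3, Amy2a4, Amy2a5, Amy2b and Rnpc3, out of 55401 gene identifiers, and 7 of 7 were found. They were selected on position in the cluster and on counts already known from the comparison of genotypes, among them the higher Rnpc3 counts in the knockout, so their differences between genotypes are given as descriptions with no test. The 4 libraries came from mice with tumours of Panc02, a mouse pancreatic ductal adenocarcinoma line. Wild-type mice (WT) gave 2 libraries and mice in which CRFR1 was conditionally knocked out (CRFR1-KO) gave 2. Crhr1 encodes CRFR1, which binds the stress peptide corticotropin-releasing factor. Crhr1 itself was at 0 counts in all 4 libraries, so it could not serve as a check of the labels. The series title names mast cells, but the sources used here do not give the allele, the Cre driver, the strain, the age or the sex, and no label states that each library of a group is a separate animal. Each p-value is therefore set against differences among these 4 libraries, and those may be technical.

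Alpha-amylase cuts starch into short sugars. In the mouse the Amy2 genes are expressed by acinar cells of the pancreas, which secrete the enzyme into the gut, whereas Amy1 is known as the amylase gene of the salivary gland and liver. Rnpc3, which lies next to Amy1, has an unrelated function. It encodes a protein of the U11/U12 particle of the minor spliceosome, the machinery that removes a rare class of introns, and it is expressed in most cell types.

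All 7 genes lie on the minus strand of chromosome 3 (GRCm38, GENCODE M21), in the order Amy2b, Amy2a5, Amy2a4, Amy2a3, Amy2a2, Amy1 and Rnpc3 along the chromosome, so that transcription runs from Rnpc3 towards Amy1 and the Amy2 genes. Amy2b spans 113147656 to 113156727, Amy2a5 113247178 to 113258837, Amy2a4 113279843 to 113291449, Amy2a3 113312455 to 113324052, and Amy2a2 113345055 to 113356658. Amy1 spans 113555710 to 113606699, and Rnpc3 113605067 to 113630149. GENCODE M21 lists Amy2b as an unprocessed pseudogene, while RefSeq lists it as protein coding. Another 2 amylase models lie in the same stretch. Amy2a1, of which only 4 exons and 890 exon bases are annotated, lies between Amy2a2 and Amy1, and the pseudogene Amy2-ps1 between Amy2b and Amy2a5.

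The sequences of the copies set what a single row can measure. Amy2a2, Amy2a3, Amy2a4 and Amy2a5 have the same coding sequence, with 0 differing bases over 1524. Amy2b differed from them at 29 of 1523 aligned bases (98.1% identity) and Amy1 at 154 of 1524 (89.9%). The stretch of 90 coding bases with the most differences between Amy2a5 and Amy1, bases 358 to 447 counted from the start codon of Amy2a5, is printed to show this, with bases that differ from Amy2a5 in capitals. Amy2a2, Amy2a3 and Amy2a4 are the same as Amy2a5 there, Amy2b differs at 1 base and Amy1 at 23.
Amy2a5: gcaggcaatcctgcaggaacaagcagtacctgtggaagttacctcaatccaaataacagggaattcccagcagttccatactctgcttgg
Amy2b: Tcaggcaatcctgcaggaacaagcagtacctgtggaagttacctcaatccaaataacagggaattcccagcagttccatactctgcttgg
Amy1: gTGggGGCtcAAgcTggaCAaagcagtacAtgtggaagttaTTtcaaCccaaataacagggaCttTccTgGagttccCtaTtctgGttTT

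Windows of 100 bases along each transcript were looked for in all other GENCODE M21 transcripts. For Amy2a2, Amy2a3 and Amy2a4, 0% of the windows were found in no other gene, and this was also 0% with windows of 50 or 150 bases searched within the locus. Amy2a5 had 52.6% of windows to itself and Amy2b 88.6%. All 1886 windows of Amy1 transcript 201 were its own. The sources used here do not give the read length. A read of these lengths from Amy2a2, Amy2a3 or Amy2a4 therefore matches at least 1 other copy, and nothing says how the counting program divided such reads.

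Promoters are shown to set the copies beside Rnpc3. That the Amy2a rows varied together says nothing of their promoters, since a read that matches several copies can be counted to any of them. In the RefSeq promoter table (GRCm38.p6), the 250 bases before the annotated start were identical in Amy2a2, Amy2a3 and Amy2a4. The annotated start of Amy2a5 lies further downstream, so its window covers other bases: in the table's full sequences, which run on for 50 bases after the start, the last 162 bases of Amy2a2 are the first 162 of Amy2a5, and the Amy2a2 sequence ends before the TATAAA described next. Each window was searched on both strands for TATAAA, the core of a TATA box, and for the E-boxes CACCTG and CAGCTG, which do not overlap each other. Capitals mark the matches in the 250 bases before the start of Amy2a5 (chr3:113258700-113258949), Amy2b (chr3:113156728-113156977) and Rnpc3 (chr3:113630150-113630399), all on the minus strand and written 5′ to 3′.
Amy2a5: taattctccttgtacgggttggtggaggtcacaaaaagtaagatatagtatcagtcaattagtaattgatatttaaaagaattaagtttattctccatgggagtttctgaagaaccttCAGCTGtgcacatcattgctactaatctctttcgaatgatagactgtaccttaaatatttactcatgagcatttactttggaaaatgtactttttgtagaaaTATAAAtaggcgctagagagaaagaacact
Amy2b: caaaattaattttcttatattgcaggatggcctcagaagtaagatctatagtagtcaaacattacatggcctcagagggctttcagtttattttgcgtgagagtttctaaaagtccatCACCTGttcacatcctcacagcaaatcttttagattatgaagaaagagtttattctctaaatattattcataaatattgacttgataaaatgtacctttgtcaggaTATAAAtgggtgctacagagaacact
Rnpc3: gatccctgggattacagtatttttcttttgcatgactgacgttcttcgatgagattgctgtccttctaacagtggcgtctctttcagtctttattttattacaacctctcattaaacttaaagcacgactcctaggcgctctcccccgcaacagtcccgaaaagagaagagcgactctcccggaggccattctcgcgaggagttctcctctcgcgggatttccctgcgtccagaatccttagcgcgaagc
Amy2a5 has a TATAAA that begins 30 bases before the start, and Amy2b one that begins 26 bases before it. An E-box begins 132 bases before the start in both, spelled CAGCTG in Amy2a5 and CACCTG in Amy2b. TATAAA was found in 12.4% of the 32851 promoters of the table, CAGCTG in 4271 of them and CACCTG (or CAGGTG, its other strand) in 17.2%. None of these letters occur in the Rnpc3 window, which is richer in G and C (49.6%) than those of Amy2a5 (32.8%) and Amy2b (33.2%). Of the 2 annotated Amy1 starts, the upstream one has no match and the downstream one has a TATAAA that begins 63 bases before it. A match is a description of the letters and does not show binding.

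Amylase transcripts were between 23.5% and 28.6% of each library. Summed over the 6 amylase rows, WT 1 had 16742897 counts, WT 2 20335829, CRFR1-KO 1 19109393 and CRFR1-KO 2 14890173. These sums were 23.9% and 28.6% of all counts in WT and 27.3% and 23.5% in the knockout. WT 2 and CRFR1-KO 1 were high, WT 1 and CRFR1-KO 2 were low, and the genotypes overlapped. As CPM, counts brought to 1 common library size by trimmed-mean-of-M-values scaling (TMM), the sum stood at 256521 ± 76554 in WT, and in the knockout at 266564 ± 55411 (SD over 2 libraries). The log2 fold change of CRFR1-KO over WT was 0.06 with a standard error (SE) of 0.28 from the edgeR fit across all genes, and it was -0.05 when libraries were scaled on their totals. With Amy2a1 and Amy2-ps1 added, the sum held 27.1% and 32.0% of counts in WT and 30.5% and 26.6% in the knockout (log2 fold change 0.05, SE 0.27). In bulk tissue, fewer acinar cells and less amylase RNA per cell cannot be told apart.

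**Figure D1:**
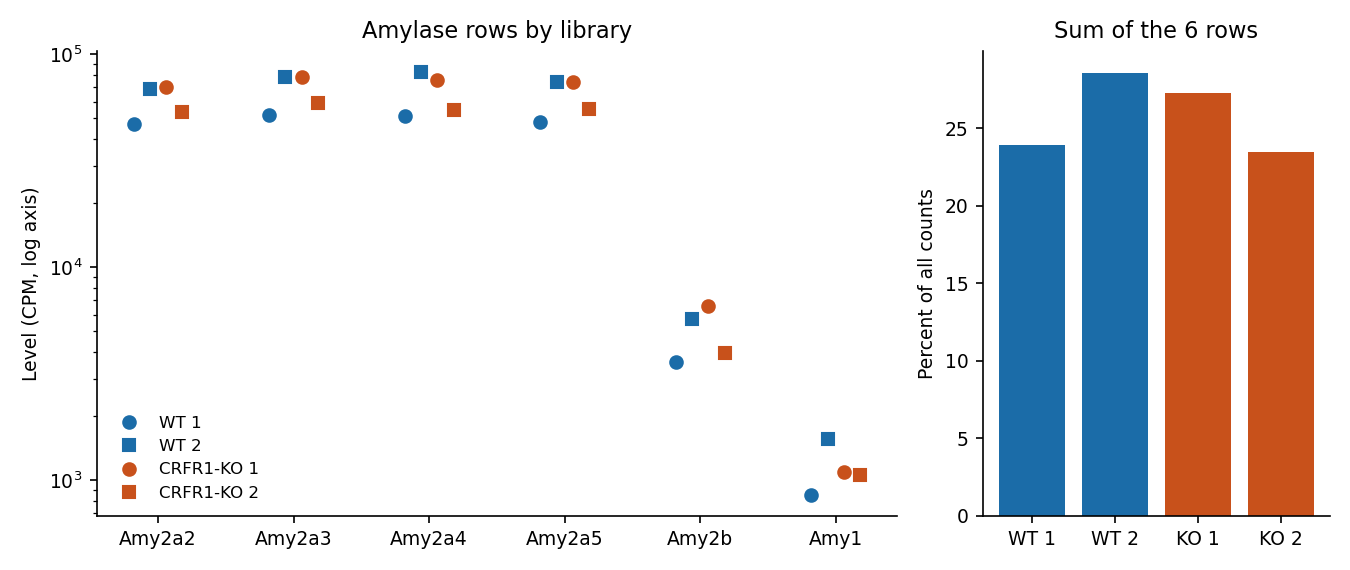
Left, level of each amylase row in CPM on a log axis, with WT libraries in blue, CRFR1-KO libraries in orange, replicate 1 as a circle and replicate 2 as a square. Right, sum of the 6 rows as a percentage of all counts of the library (KO, CRFR1-KO), between 23.5% and 28.6% with the genotypes overlapping.

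Each of the pancreatic copies Amy2a2 to Amy2a5 took a similar part of the sum. Amy2a2 had 3879415 and 4486479 counts in the WT pair and 4373727 and 3495003 in the knockout pair. Amy2a3 had 4268273 and 5131564 in WT and 4870482 and 3846661 in the knockout. Amy2a4 stood at 4240010 and 5412344 in WT against 4750923 and 3589792 in the knockout. For each of these 3 copies WT 2 and CRFR1-KO 1 exceeded the other libraries, so neither genotype lay wholly above the other. The counts of Amy2a5 were 3985907 and 4827186 in WT and 4635534 and 3630723 in the knockout, with the same libraries high. Within a library, the highest of these 4 rows exceeded the lowest by 1.10 to 1.21 times. Over the libraries Amy2a2 held 22.1% to 23.5% of the cluster sum, Amy2a3 25.2% to 25.8%, Amy2a4 24.1% to 26.6% and Amy2a5 23.7% to 24.4%. Their log2 fold changes were 0.10 (SE 0.27) for Amy2a2, 0.07 (SE 0.28) for Amy2a3, -0.03 (SE 0.30) for Amy2a4 and 0.09 (SE 0.29) for Amy2a5. Each was smaller than its SE, and on library totals all 4 were below 0. Given their shared sequence, the split between these rows cannot be read as the output of single genes.

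Amy2b was much less abundant. It had 88.6% of its 100-base windows to itself, and 59.8% of its 50-base windows within the locus. The other windows match further amylase copies, so reads of those copies can be counted to Amy2b, and how many were was not tested. Amy2b had 298340 and 375400 counts in the WT pair and 410027 and 258274 in the knockout pair, or 1.73% to 2.15% of the cluster sum. On unscaled counts the knockout held both the highest and the lowest library, and on CPM the genotypes overlapped as well. Amy2a2 to Amy2a5 together exceeded Amy2b by 45.4 to 56.4 times. The log2 fold change of Amy2b was 0.17, SE 0.33.

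Amy1, whose known sites are the salivary gland and liver, was detected in every library. It had 70952 and 102856 counts in the WT pair and 68700 and 69720 in the knockout pair. WT 2 stood highest, the other 3 libraries lay close together, and on unscaled counts both knockout libraries lay below both WT libraries. As CPM, Amy1 stood at 1215 ± 504 in WT, and in the knockout at 1082 ± 24 (SD over 2 libraries; the log2 fold change was -0.17, SE 0.30), and on that scale the genotypes overlapped. Without WT 2 the log2 fold change was 0.34, so its direction rested on that library. Amy1 was 0.360% to 0.506% of the cluster sum, and Amy2a2 to Amy2a5 together exceeded it by 193 to 271 times. Of 11 salivary gland markers in the table, 10 were at a count of 0 in all 4 libraries, among them Bpifa2, Smr3a and Muc19, and the water channel gene Aqp5 had 44 and 16 counts in the WT pair and 12 and 4 in the knockout pair. The 13 hepatocyte markers summed to 23.4 to 37.5 CPM over the libraries, nearly all of it from the transferrin gene Trf (5.36 to 21.9 CPM), the transthyretin gene Ttr (6.14 to 14.9 CPM) and the transcription factor gene Hnf4a (6.51 to 10.8 CPM). Alb, encoding albumin, had 57 and 10 counts in the WT pair and 16 and 85 in the knockout pair, and 4 of 13 markers were at 0. Their part in the Amy1 counts was not tested. Acinar markers were all present, 13 of 13, with summed levels of 207154 and 260689 CPM in WT and 282174 and 247342 in the knockout.

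Rnpc3 (ENSMUSG00000027981) stood apart from the amylase rows. It had 7766 and 7946 counts in the WT pair and 14969 and 27318 in the knockout pair. Both CRFR1-KO libraries lay above both WT libraries, and CRFR1-KO 2 lay furthest from the rest. The level stood at 108 ± 19 CPM in WT, and in the knockout at 328 ± 126 CPM (SD, n = 2 libraries each), 3.05-fold higher, with a log2 fold change of 1.61 (SE 0.30). Without CRFR1-KO 2 the log2 fold change was 1.16. On CPM, Rnpc3 was the sole member, 1 of 7, whose libraries did not overlap between genotypes. On unscaled counts those of Amy1 did not overlap either, with both knockout libraries lower. Of the 15131 genes tested, 33.5% did not overlap in either direction, 16.9% with both CRFR1-KO libraries lower. Those with both CRFR1-KO libraries higher were 16.6%, those that also had a log2 fold change of at least 1 were 2.27%, and 0.0264% passed the edgeR threshold in either direction. All 7 members passed the filter on low counts.

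Amy1 and Rnpc3 share annotated sequence, which bears on both rows. Of the 5 Amy1 transcripts in GENCODE M21, transcript 205 begins inside the last exon of Rnpc3 and is spliced to the second exon of the full-length Amy1 transcripts. Its first exon, chromosome 3 from 113605572 to 113606699, lies wholly within Rnpc3 exons. Those 1128 bases are 17.0% of the exon bases of Rnpc3 and 32.7% of those of Amy1, and none is coding in either gene. The other 4 Amy1 transcripts start at least 27742 bases downstream and share no exon base with Rnpc3. Rnpc3 transcripts 201 and 208 hold all 1128 bases, 202 holds 364 and 203 holds 76.

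**Figure D2:**
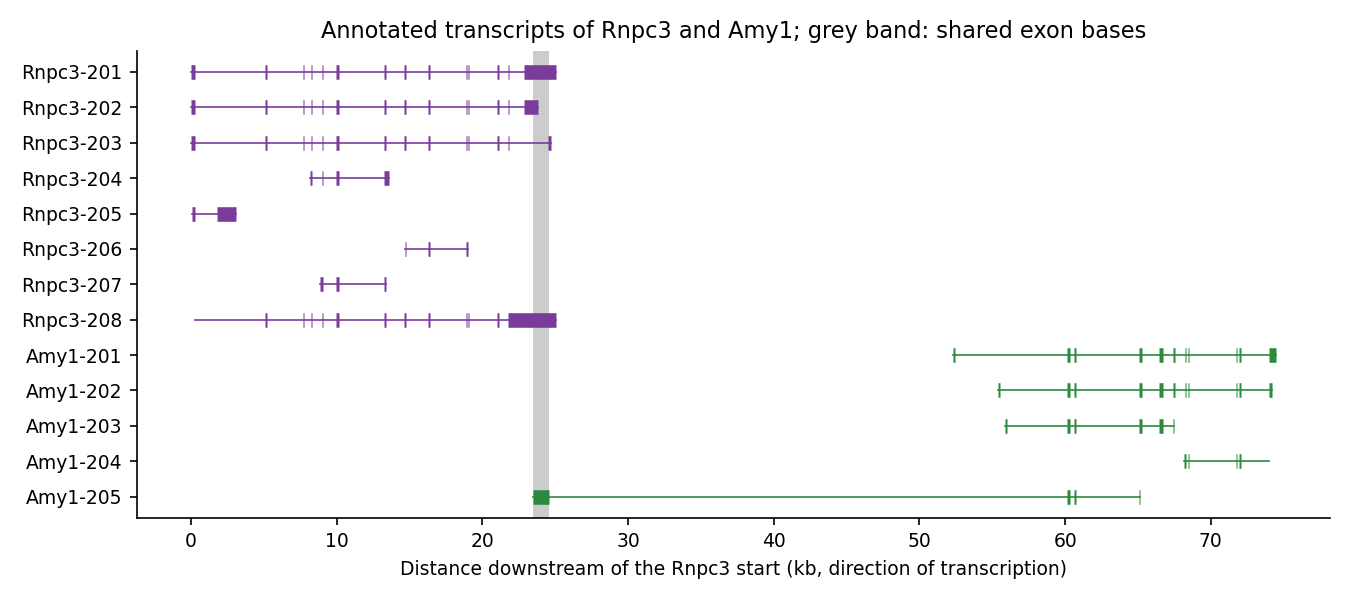
Annotated transcripts of Rnpc3 (purple) and Amy1 (green) along the direction of transcription, in kb from the Rnpc3 start, with exons as boxes and introns as lines. The grey band marks the 1128 exon bases that transcript 205 of Amy1 shares with Rnpc3.

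Rnpc3 was 9.87% of the counts of Rnpc3 and Amy1 together in WT 1 and 7.17% in WT 2, against 17.9% in CRFR1-KO 1 and 28.2% in CRFR1-KO 2. Exact Clopper-Pearson 95% intervals, which cover counting error alone, were 9.66% to 10.1% in WT 1 and 27.9% to 28.4% in CRFR1-KO 2. The sum of both rows was 78718 and 110802 in WT and 83669 and 97038 in the knockout, and the genotypes overlapped. Its log2 fold change was 0.09 (SE 0.30), and it was -0.26 without WT 1 and 0.57 without WT 2. Amy1 supplied most of that sum. The mean Rnpc3 count was 13288 higher in the knockout, and the mean Amy1 count, 86904 in WT and 69210 in the knockout, moved by -17694. The sum ranged over 32084 counts and Amy1 over 34156. Both differences were therefore smaller than the spread of the sum. Whether reads from the shared 1128 bases were assigned differently among libraries was not tested, since counts per exon are not analysed here.

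**Figure D3:**
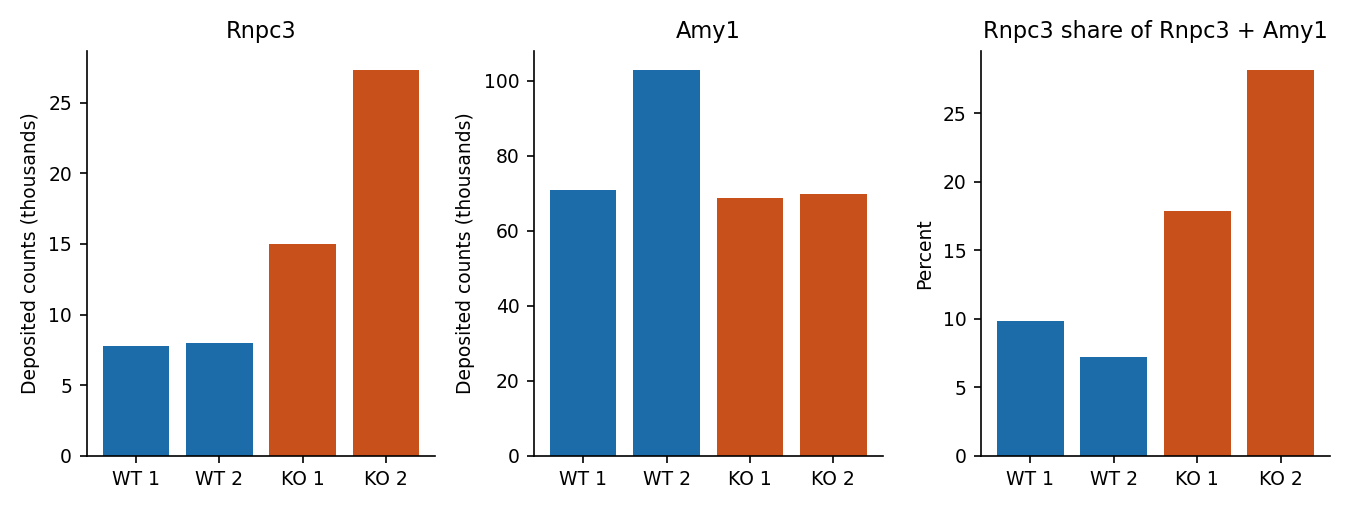
Deposited counts of Rnpc3 and Amy1 in each library, and Rnpc3 as a percentage of both (KO, CRFR1-KO; WT in blue, CRFR1-KO in orange). Both CRFR1-KO libraries lie above both WT libraries in Rnpc3, Amy1 is highest in WT 2, and the share lies between 7.17% and 28.2%.

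The Rnpc3 row was also far more abundant than the genes of its partner proteins. Per kilobase of exon, Rnpc3 stood at 14.2 and 18.3 CPM in the WT pair, and at 36.1 and 62.95 CPM in the knockout pair. The 12 other minor spliceosome genes in the table ranged from 0.0598 to 2.18 CPM per kilobase over the libraries. The highest of them in WT 1 was Zmat5, which encodes a U11/U12 particle protein, at 1.71 CPM per kilobase, and Rnpc3 exceeded it 8.26 times. In CRFR1-KO 2 Zmat5 was again highest at 2.18 CPM per kilobase, and Rnpc3 exceeded it 28.9 times. Rnpc3 was first in every library and Zmat5 and Zcrb1 followed, with Zcrb1 ahead of Zmat5 in CRFR1-KO 1.

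None of the 12 partner genes was called between genotypes. In edgeR 0 passed after Benjamini-Hochberg adjustment over all genes, against 4 of all 15131 tested genes. At an unadjusted p under 0.05 there were 0, against 735 of all tested genes. The DESeq2 Wald test called 0 of the 12 and 57 genes in all, and limma-voom called 0 genes in all. With so few calls among all genes, 0 of 12 does not set this list apart. Of the 12, 6 were above 0 and 6 below, with a median log2 fold change of 0.03, against -0.01 over all tested genes, and of -0.16 when libraries were scaled on their totals, which moved the median of all genes by -0.13. Without WT 2 the median of the 12 was -0.19. Snrnp48, encoding a U11/U12 particle protein, had 390 and 252 counts in the WT pair and 343 and 431 in the knockout pair (log2 fold change 0.49 ± 0.22 SE, adjusted p = 0.9998 by edgeR). Its CPM did not overlap between genotypes. Pdcd7, another particle protein gene, had a log2 fold change of -0.33 (SE 0.31), Ccdc84 of 0.32 (SE 0.32) and Zcrb1 of 0.15 (SE 0.21). All 3 overlapped between genotypes, and the 12 log2 fold changes lay between -0.33 and 0.49, against 1.61 for Rnpc3.

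**Figure D4:**
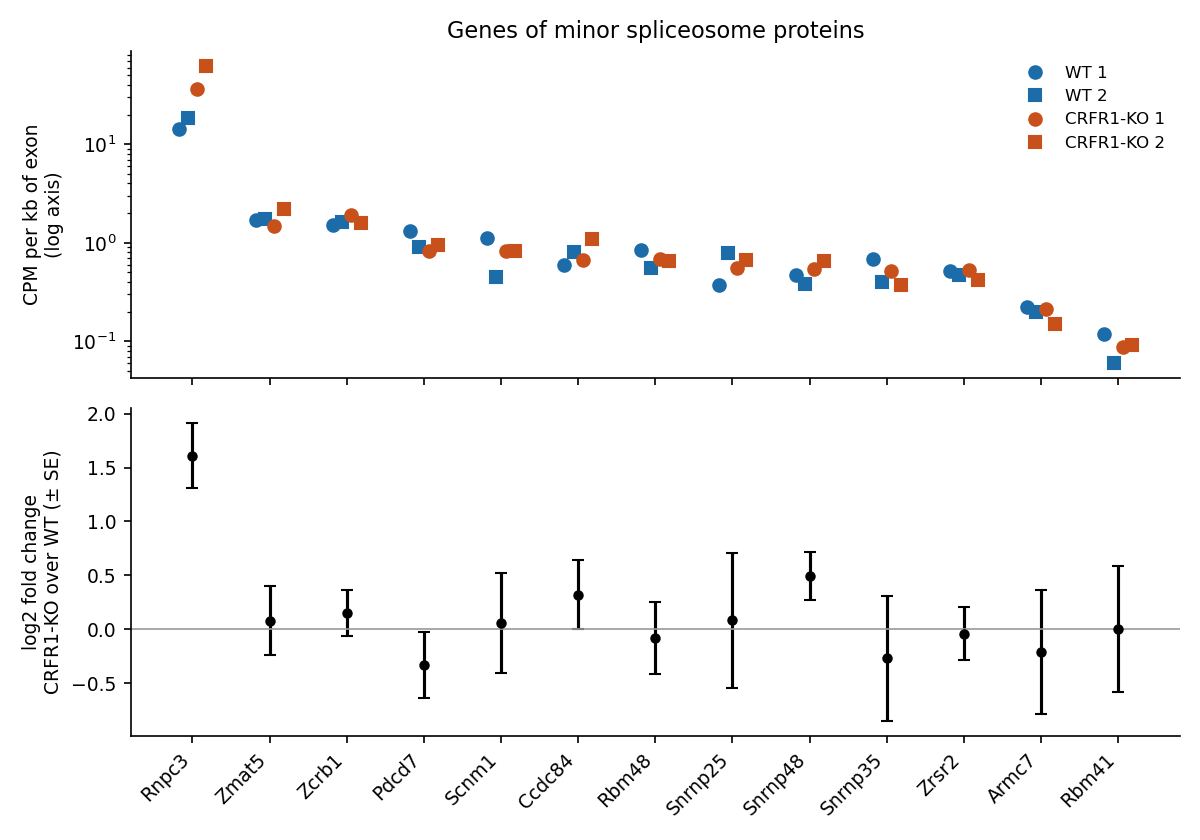
Top, CPM per kilobase of exon (log axis) of Rnpc3 and 12 other genes of minor spliceosome proteins in each library (WT in blue, CRFR1-KO in orange, replicate 1 as circles and 2 as squares). Bottom, log2 fold change of CRFR1-KO over WT with its SE, where Rnpc3 stands at 1.61 and the others between -0.33 and 0.49.

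The genes next to the cluster gave almost no counts. Of 5 other gene models within 200 kb of the cluster, all processed pseudogenes, 4 were at 0 in all libraries. The remaining one, Gm17954, which lies upstream of Rnpc3 on the same strand, had 3 and 2 counts in the WT pair and 8 and 0 in the knockout pair.

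The other enzymes of the acinar cell gave the setting for the amylase values. Trypsinogens, chymotrypsins, elastases, carboxypeptidases, lipases and nucleases are made and stored with amylase in zymogen granules. Summed, 25 such genes held 48.7% and 46.8% of counts in WT and 49.3% and 51.8% in the knockout. Amylase was 33.0% and 37.9% of the counts of amylase and these enzymes together in WT, and 35.6% and 31.2% in the knockout, with the genotypes overlapping. In edgeR 0 of 25 passed after adjustment over all genes, against 4 of all 15131 tested genes. At an unadjusted p below 0.05, 1 was higher and 0 lower, against 258 higher and 477 lower among all tested genes. DESeq2 and limma-voom called 0 of the 25. Of the 25, 21 were above 0 and 4 below, with a median log2 fold change of 0.23. This median was 0.09 without WT 1, 0.39 without WT 2 and 0.14 on library totals. In 9 of 25 both CRFR1-KO libraries lay above both WT libraries, which was so for 16.6% of all tested genes.

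Among these enzymes the smallest p belonged to Ctrc, encoding chymotrypsin C, which had 10660 and 9828 counts in the WT pair and 12391 and 13450 in the knockout pair (log2 fold change 0.53 ± 0.19 SE, adjusted p = 0.986 by edgeR). The trypsinogen gene Try5 stood at 0.51 (SE 0.22), the ribonuclease gene Rnase1 at 0.40 (SE 0.21) and Try10 at 0.30 (SE 0.21). All 4 were higher in both CRFR1-KO libraries. They were named for the smallest p in the list, a choice that favours genes whose libraries do not overlap. A test of the amylase rows against these enzymes was not made. Pancreatic lipase Pnlip, at 46576 ± 6727 CPM in WT, and in the knockout at 57281 ± 10870 CPM (SD, n = 2 libraries each), overlapped as the amylases did.

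**Figure D5:**
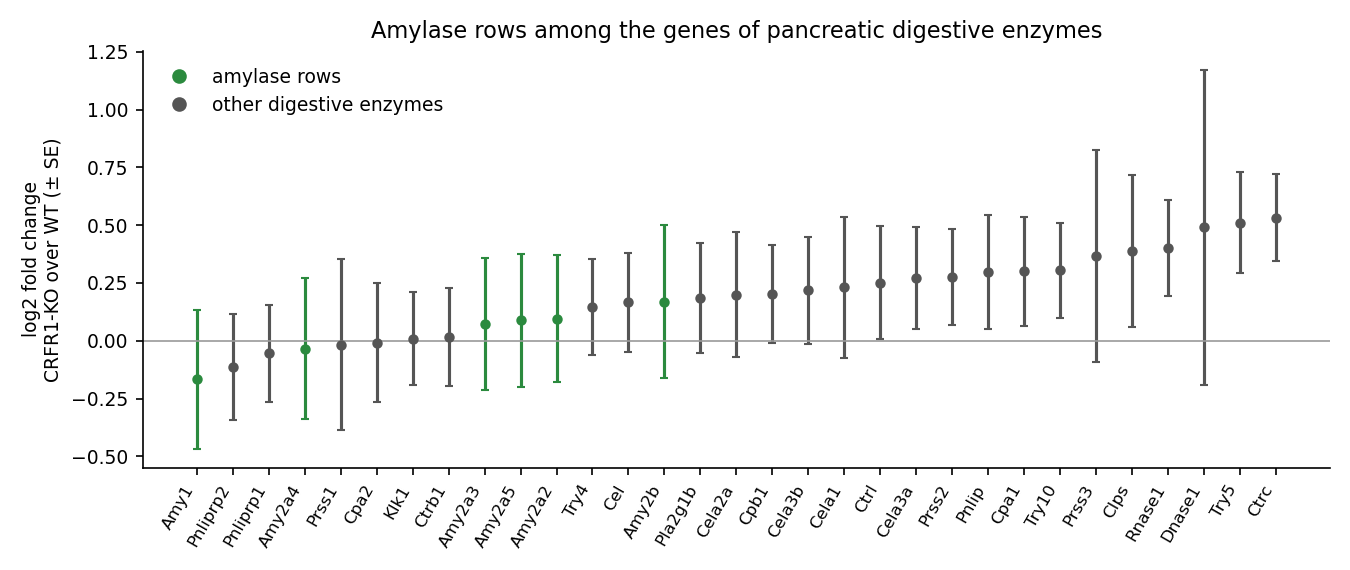
Log2 fold change of CRFR1-KO over WT, with its SE, for the 6 amylase rows (green) and 25 other pancreatic digestive enzyme genes (grey), in rising order. The amylase rows lie between -0.17 and 0.17, and the others between -0.11 and 0.53.

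Enzymes that act on starch, glycogen or their products did not pass either. Of 10 tested genes 0 passed in edgeR, DESeq2 or limma-voom, and edgeR passed 4 of all 15131 tested genes. At an unadjusted p below 0.05 in edgeR, 1 was lower and 0 higher, against 477 lower and 258 higher among all tested genes. Of the 10, 5 were above 0 and 5 below, with a median log2 fold change of -0.0038. That median had no stable direction, running from -0.20 with no filter on low counts to 0.25 without WT 1. Pygl, the liver glycogen phosphorylase gene, had 84 and 27 counts in the WT pair and 12 and 13 in the knockout pair (log2 fold change -1.87 ± 0.76 SE, adjusted p = 0.9998 by edgeR). The intestinal sucrase-isomaltase gene Sis was at 0 in all 4 libraries, and Mgam, encoding maltase-glucoamylase, had 126 and 18 counts in the WT pair and 49 and 41 in the knockout pair. Gaa, encoding the lysosomal alpha-glucosidase, stood at 10.9 ± 2.1 CPM in WT, and in the knockout at 9.08 ± 0.65 CPM (SD over 2 libraries; the log2 fold change was -0.26, SE 0.20). Ganc, which encodes neutral alpha-glucosidase C, stood at 0.38 (SE 0.27) and Gba2, a glucosylceramidase gene, at 0.35 (SE 0.30).

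The profiles of the amylase sum and of Rnpc3 over libraries were set beside those of other genes. Likeness was the root mean square difference between log2(CPM + 0.5) profiles over the 4 libraries, each centred on its own mean, among named genes with a mean over the 4 libraries of at least 5 CPM. Nearest to the amylase sum were Srp9, a signal recognition particle subunit gene, at 0.02 log2 units, the elongation factor gene Eef1b2 at 0.02, the Golgi mannosidase gene Man2a1 at 0.03, the ribosomal protein gene Rps2 at 0.03 and the kinase gene Eif2ak4 at 0.03. Srp9, for example, stood at 34.2 and 52.7 CPM in the WT pair, and at 50.9 and 39.4 CPM in the knockout pair. For Rnpc3 the nearest was Rpl31-ps8 at 0.47 log2 units, followed by Galnt6os at 0.52, the kinase gene Frk at 0.52, Akap2 at 0.53 and Snrpn, a spliceosome protein gene, at 0.54. Frk stood at 5.36 and 5.35 CPM in the WT pair, and at 6.93 and 9.73 CPM in the knockout pair. The size of the differences among libraries enters this measure, and it was larger for Rnpc3 than for the amylase sum. Distances to Rnpc3 and to the amylase sum are therefore not comparable. Eef1b2, Rps2, Akap2 and Snrpn share exon bases with other gene models, so reads in those bases can be counted to either.

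Markers of other cell types were summed in the same libraries. In edgeR 0 of the 9 duct, 10 islet, 8 fibroblast and 8 macrophage markers were called after adjustment over all genes. Of all 15131 tested genes 4 were called. At an unadjusted p below 0.05 there were 5 lower duct markers, 6 lower fibroblast markers, 4 lower macrophage markers and 1 higher islet marker. Among all tested genes 477 were lower and 258 higher at that cut. The 8 fibroblast markers summed to 486 and 229.8 CPM in the WT pair, and to 161 and 182 CPM in the knockout pair, and the 8 macrophage markers to 125 and 93.0 against 45.5 and 72.3 CPM. The 9 duct markers came to 276 and 192 CPM in the WT pair, and to 170 and 161 CPM in the knockout pair. Each of these 3 summed levels was lower in both CRFR1-KO libraries. Taken singly, 7 of 8 fibroblast, 6 of 8 macrophage and 5 of 9 duct markers were lower in both, against 16.9% of all tested genes. Another duct marker, 1 of 9, was higher in both. Of the islet markers 3 of 10 were higher in both and 0 lower in both. Of the acinar markers 5 of 13 were higher in both and 1 lower in both. Higher in both were 16.6% of all tested genes. The 10 islet markers summed to 42.8 and 279.7 CPM in the WT pair, and to 244 and 302 CPM in the knockout pair, with WT 1 far below the rest and the genotypes overlapping. Their part in the amylase and Rnpc3 values was not tested.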

How the data were processed

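RNA-seq was measured in 4 libraries, 2 WT and 2 CRFR1-KO. The table that the authors deposited gives each library's raw count for every Ensembl identifier. Per the labels' protocols, the libraries were poly(A)-selected with the second strand marked by dUTP. FastQC, DESeq2 and edgeR are named, with no role, in the submitters' processing notes. The aligner, the counter, its strand setting, its handling of reads that match several genes, the annotation and the build: not given in the sources used here. Totals ranged from 63495457 to 71203640 counts per library, and 3 counts corresponded to 0.0363 to 0.048 CPM. TMM factors were 1.18, 0.919, 0.892 and 1.03 for WT 1, WT 2, CRFR1-KO 1 and CRFR1-KO 2.

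Genes were fitted in R 4.3.3 with edgeR 4.0.16 (TMM, filterByExpr, quasi-likelihood F test, two-sided, group alone) over 15131 genes, Benjamini-Hochberg threshold 0.05. A permutation test of a single value cannot go below 0.333 with 2 libraries against 2. SEs come from the F statistic. Summed rows replaced their parts in separate fits. Symbols came from GENCODE M21 for 55141 identifiers and were absent for 260. The members, lists and rules were chosen with earlier results of these data known. The named genes were the 7 members, models sharing exons with them, neighbours within 200 kb, up to 4 members of each list by smallest p, and the 5 nearest profiles; others named were chosen after their values were seen. Alternatives were DESeq2 1.42.0 size factors and Wald test, limma 3.58.1 (voom), library totals with and without the enzymes, no filter, a replicate block, leaving out each library, counts divided by 4 (small deposited counts that are multiples of 4 were over-represented), and summing exon-sharing models. Sums with Amy2a1 and Amy2-ps1, or of the Amy2 rows alone, were alternatives chosen after the data had been seen. The edgeR script was tested on simulated data.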

Additional observations from a re-analysis of the deposited data

How the results depend on the processing

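Rnpc3 stayed higher in CRFR1-KO under all 12 alternatives run, with log2 fold changes from 1.16 (without CRFR1-KO 2) to 1.96 (without CRFR1-KO 1). That direction was known when Rnpc3 was chosen. With both CRFR1-KO libraries above both WT libraries, leaving out 1 library could hardly reverse it, so its being kept adds no support. With exon-sharing models summed, Rnpc3 has no value of its own. The amylase sum lay between -0.22 and 0.40 over 15 alternatives and the median of the single copies between -0.19 and 0.40 over 13, with both ends from leaving out WT 1 and WT 2; 3 of each fell on the other side of 0. The sum of Rnpc3 and Amy1 lay between -0.26 and 0.57 when 1 library was left out, and reached 0.57 without WT 2. Scaling on library totals shifted the median of all genes by -0.13 on the log2 scale. The count of genes past the threshold, 4 in edgeR, was 57 with the DESeq2 Wald test, 0 with limma-voom, 0 with exon-sharing models summed, and 0 to 69 when 1 library was left out (40 without WT 1, 69 without WT 2, 2 without CRFR1-KO 1, 0 without CRFR1-KO 2); the cause was not tested. The 3 gene lists had 0 calls under all 13 alternatives. Amy2a5 held a mean of 24.05% of the cluster sum, 24.15% of the Amy2 rows alone, and 23.93% to 24.15% when 1 library was left out.

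The titles give both groups replicate numbers 1 and 2, which the labels do not tie to a shared litter or day. Deviations of same-numbered libraries correlated at -0.07 across genes. With the replicate block 5 genes passed the threshold, Rnpc3 stood at 1.57, the amylase sum at 0.07, the median of the single copies at 0.10 and the sum of Rnpc3 and Amy1 at 0.15, and the lists had 0 calls. Leaving out a library leaves its group with 1, which is then assumed to vary like the other group. At these depths counting error is small, and the number of libraries limits precision.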
